A study of Mus musculus with 6 samples.

Results

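The platelet-derived growth factor (PDGF) genes examined here were the ligand genes Pdgfa, Pdgfb, Pdgfc and Pdgfd and the receptor genes Pdgfra and Pdgfrb. They were found by their exact gene name in the count tables, and all 6 were among the 31130 genes listed. The libraries came from tumor tissue in the lungs of wild-type female C57BL/6 mice, 6 to 8 weeks old, 3 of the LC model and 3 of the IP+LC model. Every mouse received LLC cells (Lewis lung carcinoma, a transplantable tumor line of C57BL/6 origin) in the left lung on day 14, and tissue was taken on day 21. The IP+LC mice had also been given bleomycin through the oropharynx at 2.0 mg/kg before the cells, which causes lung injury followed by fibrosis. The labels call the material lung cancer cells, but it was whole tissue with the host cells around and inside the tumor. The surfactant gene Sftpc, which marks type 2 alveolar cells of the normal lung, was at 27466 ± 3357 CPM (UMI counts scaled to a common library size) with LC alone and at 6347 ± 1865 CPM with IP+LC (mean ± SD, n = 3). In such bulk tissue, fewer cells of a type and less RNA per cell cannot be told apart.

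PDGF ligands are secreted dimers that bind receptor tyrosine kinases on cells of mesenchymal origin. PDGFRα binds PDGF-A, PDGF-B and PDGF-C chains, whereas PDGFRβ binds PDGF-B and PDGF-D chains. PDGF-A and PDGF-B are cut inside the producing cell by furin-like proteases, while PDGF-C and PDGF-D leave the cell in a latent form and are freed outside it, PDGF-C by tissue plasminogen activator and PDGF-D by urokinase. In the lung, PDGF-A from epithelial cells acts on fibroblasts that carry PDGFRα, PDGF-B from endothelial cells holds pericytes that carry PDGFRβ at the vessel wall, and the family is a known driver of fibroblast growth in pulmonary fibrosis.

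The members lie on 5 chromosomes of GRCm38. Pdgfa (ENSMUSG00000025856) is on chromosome 5 from 138976014 to 138997370 on the minus strand, and Pdgfra (ENSMUSG00000029231) is on the same chromosome from 75152292 to 75198215 on the plus strand. Pdgfb (ENSMUSG00000000489) is on chromosome 15 from 79995874 to 80014977, Pdgfc (ENSMUSG00000028019) on chromosome 3 from 81036416 to 81214040, Pdgfd (ENSMUSG00000032006) on chromosome 9 from 6168584 to 6378850 and Pdgfrb (ENSMUSG00000024620) on chromosome 18 from 61045150 to 61085061. Exons of another gene on the opposite strand cover 813 nt of the 3119 nt of Pdgfa exon sequence, namely of 6330403L08Rik, which had at most 13 UMIs in any tumor. Whether the counting used the strand is not stated, and how many UMIs from the shared sequence were left out or counted for Pdgfa was not measured. For Pdgfc and Pdgfra the overlapping genes were not in the count tables, and Pdgfb, Pdgfd and Pdgfrb share no exon with another gene.

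The libraries held 592733 unique molecular identifiers (UMIs, each counted as 1 RNA molecule) in LC replicate 1 and between 1336919 and 1631066 in the other 5 tumors. A level of 3 UMIs, taken as the limit of detection, was 5.17 CPM in LC replicate 1 and 1.75 to 2.54 CPM elsewhere, on the same scaling as all CPM values here. Replicates of a group differed by more than sampling noise in every pair (chi-square per degree of freedom between 3.10 and 26.0), so no pair of files held the same library counted again. Repeat preparations of 1 tumor could not be told from separate tumors in this way. LC replicate 1 stood apart from the other LC tumors: the summed CPM of 12 macrophage markers was 4959 there against 1892 and 1600 in LC replicates 2 and 3, and that of 12 proliferation markers was 878 against 180.2 and 177. Where a call of a named gene ended or its fold change moved by over 1.5 times without this or another tumor, that is given below.

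The upstream sequences of Pdgfc, whose mRNA was higher, and of Pdgfd and Pdgfra, whose mRNAs were lower in the IP+LC group, are shown because these starts have no annotated exon in the 250 bases before them. They are from RefSeq on GRCm38.p6, written on the strand of the gene and ending at the base before the RefSeq start. They lie at chr3:81036166-81036415, chr9:6168236-6168485 and chr5:75152001-75152250. Capitals mark matches to any of 7 motifs searched on both strands: the TATA box TATAAA, the box named CCAAT, the GC box GGGCGG, the cores ACGTG and GCGTG that hypoxia-inducible factors and aryl hydrocarbon receptor are known to bind, the AP-1 site TGACTCA, and the STAT site TTCNNNGAA.
Pdgfc: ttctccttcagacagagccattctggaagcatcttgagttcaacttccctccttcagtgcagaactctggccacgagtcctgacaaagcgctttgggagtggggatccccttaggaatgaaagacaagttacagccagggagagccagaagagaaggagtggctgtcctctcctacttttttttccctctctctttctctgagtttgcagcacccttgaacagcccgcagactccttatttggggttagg
Pdgfd: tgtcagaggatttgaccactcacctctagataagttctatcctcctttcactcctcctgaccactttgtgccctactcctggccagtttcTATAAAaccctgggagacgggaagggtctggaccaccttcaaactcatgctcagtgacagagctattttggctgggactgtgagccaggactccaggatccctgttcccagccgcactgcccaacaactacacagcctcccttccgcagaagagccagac
Pdgfra: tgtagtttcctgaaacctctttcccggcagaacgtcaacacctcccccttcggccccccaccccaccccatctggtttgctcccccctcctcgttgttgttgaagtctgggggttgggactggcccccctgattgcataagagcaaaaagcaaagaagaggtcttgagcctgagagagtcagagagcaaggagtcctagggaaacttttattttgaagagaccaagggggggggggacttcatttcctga
Pdgfd held a TATAAA box that began 160 bases before the start, a motif found in 12.4% of the 32851 RefSeq windows of the same length. The windows of Pdgfc and Pdgfra held no match to any of the 7 motifs. The motif GGGCGG, present in 32.7% of all windows, was found in both Pdgfa windows, which overlap exons of Pdgfa itself and are not printed. The window further upstream also held a match to GCGTG, read on the opposite strand as CACGC, that began 231 bases before the start. The share of windows was 33.8% for CCAAT, 28.2% for GCGTG, 16.6% for ACGTG, 7.02% for TTCNNNGAA and 4.46% for TGACTCA. A match is a description of the letters and was not tied to any measurement of binding.

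Between the groups, both receptor mRNAs fell, the ligand mRNAs Pdgfb and Pdgfd fell, Pdgfc rose, and Pdgfa did not pass the test (quasi-likelihood test of edgeR, p-values adjusted over 11240 genes by Benjamini-Hochberg, limit 0.1). All 6 members passed the filter on low counts. At that filter's level of 7.41 CPM, Pdgfd was present in 3 LC and 0 IP+LC tumors and Pdgfc in 2 LC and 3 IP+LC tumors, so both entered the test through the group in which they were high. Of the 6 members, 1 was higher and 4 were lower in the IP+LC group. Among all genes tested, 16.8% were called higher and 19.6% lower, 36.4% in all. When 10 UMIs were required in every library, which left out Pdgfc and Pdgfd, 3 of the 4 remaining members and 40.4% of all genes tested were called. The number of called members was 6 in the fit that left out LC replicate 1, in which 57% of all genes were called. It was 2 in the fit that left out IP+LC replicate 1 (22.6% of all genes) and 3 in the fit that left out IP+LC replicate 2 (19.2% of all genes). Leaving out LC replicate 2, LC replicate 3 or IP+LC replicate 3 gave 4, 5 and 4 called members, with 22.4%, 26.4% and 26.7% of all genes called.

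**Figure D1:**
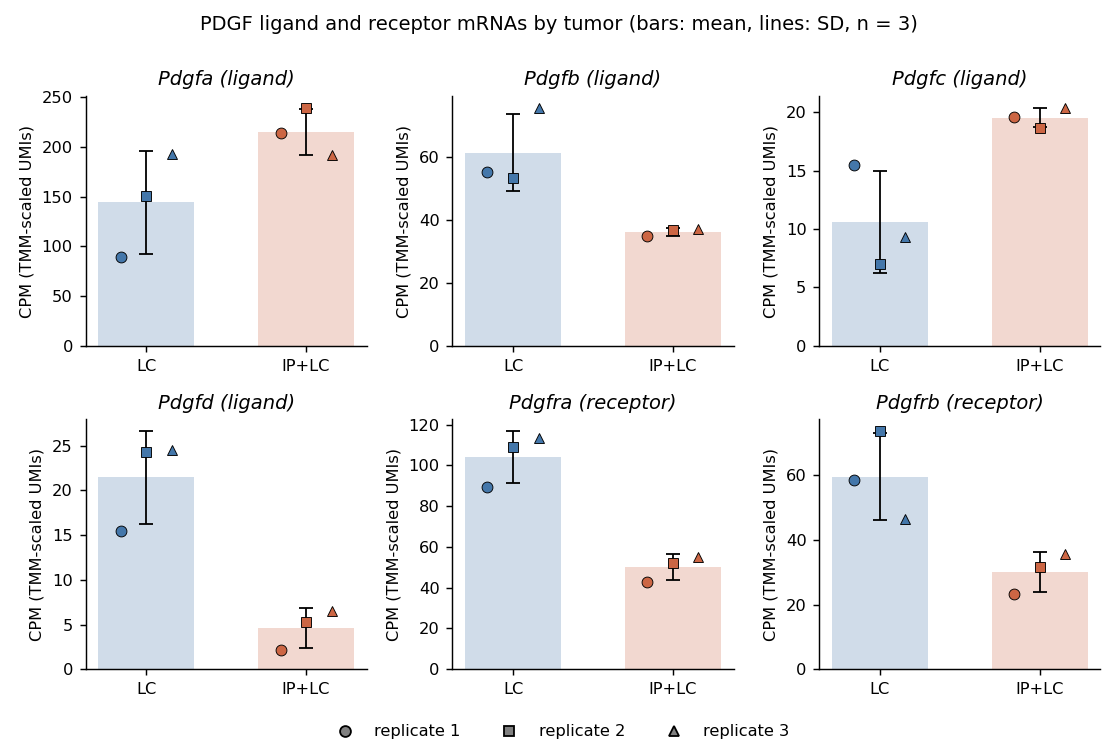
CPM after TMM scaling (vertical axes, from 0) of each PDGF gene in the 3 LC and the 3 IP+LC tumors, with bars for the mean, lines for the SD and a symbol for each replicate. The groups overlap for Pdgfa alone, the IP+LC tumors all lie above the LC tumors for Pdgfc, and they all lie below them for Pdgfb, Pdgfd, Pdgfra and Pdgfrb.

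Pdgfra encodes the receptor of lung fibroblasts and their progenitors. It had 52, 139 and 134 UMIs in LC replicates 1, 2 and 3, which is 89.5, 109 and 114 CPM. The IP+LC tumors had 59, 89 and 76 UMIs, or 42.8, 51.9 and 55.2 CPM. No IP+LC tumor reached the level of any LC tumor, as was the case in one direction or the other for 43.1% of all tested genes. Group means were 104 ± 12.7 and 49.97 ± 6.43 CPM (SD, n = 3), with a fitted log2 fold change of -1.06 (standard error 0.21, 95% interval -1.53 to -0.60, adjusted p = 0.00657 from edgeR). This was 2.09-fold lower, and it passed the limit in each of the 18 alternative settings, with log2 fold changes between -1.19 and -0.90.

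Pdgfrb encodes the receptor of pericytes and vascular smooth muscle cells. Its UMIs were 34, 94 and 55 in the LC tumors and 32, 54 and 49 in the IP+LC tumors. In CPM these were 58.5, 73.6 and 46.6 against 23.2, 31.5 and 35.6, so the groups did not overlap, but LC replicate 3 and IP+LC replicate 3 lay close to each other. The counting interval of LC replicate 3 ran from 35.1 to 60.7 CPM and that of IP+LC replicate 3 from 26.3 to 47.0 CPM (95%, exact binomial, counting error only). Means of 59.6 ± 13.5 and 30.1 ± 6.31 CPM (SD, n = 3) gave a fitted log2 fold change of -0.99 (standard error 0.26, 95% interval -1.56 to -0.41, adjusted p = 0.0215 from edgeR). The call was lost without IP+LC replicate 1, the tumor with the lowest level (-0.81, adjusted p = 0.105 from edgeR).

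The ratio of both receptor mRNAs within a tumor, which does not depend on how the libraries are scaled, differed little. There were 1.53, 1.48 and 2.44 Pdgfra UMIs per Pdgfrb UMI in the LC tumors and 1.84, 1.65 and 1.55 in the IP+LC tumors. All 3 IP+LC values fell within the range of the LC values. On the log2 scale the mean difference between the groups was -0.08, against an SD of 0.40 among LC tumors and 0.12 among IP+LC tumors.

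Pdgfd encodes a ligand of PDGFRβ and had the largest fitted change of the 6 genes. Its UMIs were 9, 31 and 29 in the LC tumors and 3, 9 and 9 in the IP+LC tumors. This corresponds to 15.5, 24.3 and 24.6 CPM against 2.18, 5.25 and 6.54 CPM, without overlap. IP+LC replicate 1 was at the limit of detection, and its 3 UMIs allow a level between 0.449 and 6.36 CPM (95%, exact binomial, counting error only). The mean fell from 21.5 ± 5.16 to 4.65 ± 2.24 CPM (SD, n = 3), which was 4.66-fold lower in the fit. The log2 fold change was -2.22 (standard error 0.39, 95% interval -3.11 to -1.33, adjusted p = 0.00474 from edgeR). Pdgfd passed the limit in each of the 16 settings in which it could be tested. Its low counts left it out after thinning and where a minimum of UMIs was required in every library. In the main fit it entered through the LC tumors, as no IP+LC tumor reached the filter's level of 7.41 CPM. Without a filter on low counts its log2 fold change was -2.10.

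Pdgfb encodes the ligand chain that binds both receptors and that endothelial cells and platelets supply. It had 32, 68 and 89 UMIs in the LC tumors and 48, 63 and 51 UMIs in the IP+LC tumors. In CPM the LC tumors were at 55.1, 53.3 and 75.4 and the IP+LC tumors at 34.8, 36.8 and 37.0. All IP+LC tumors lay below all LC tumors, and they lay closer together, with an SD of 3.37% of the mean against 20.1% in the LC group. With means of 61.3 ± 12.3 and 36.2 ± 1.22 CPM (SD, n = 3), the level was 1.70-fold lower and the fitted log2 fold change -0.77 (standard error 0.21, 95% interval -1.25 to -0.28, adjusted p = 0.0288 from edgeR). Leaving out IP+LC replicate 1 gave -0.71 (adjusted p = 0.121 from edgeR), and leaving out IP+LC replicate 2 gave -0.75 (adjusted p = 0.123 from edgeR), neither past the limit.

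Pdgfc encodes a ligand of PDGFRα that is made by epithelial, mesenchymal and many tumor cells. There were 9, 9 and 11 UMIs in the LC tumors and 27, 32 and 28 in the IP+LC tumors. The CPM values were 15.5, 7.05 and 9.32 against 19.6, 18.7 and 20.3, so LC replicate 1 lay nearest to the IP+LC tumors and no values overlapped. Its counting interval, from 7.09 to 29.4 CPM, included the level of every IP+LC tumor. The mean rose from 10.6 ± 4.37 to 19.5 ± 0.828 CPM (SD, n = 3), a 1.98-fold increase with a log2 fold change of 0.98 (standard error 0.33, 95% interval 0.24 to 1.73, adjusted p = 0.0533 from edgeR). Only the removal of LC replicate 1 kept the call among the fits that left out 1 tumor (1.26, adjusted p = 0.00563 from edgeR). The fit gave 0.73 without LC replicate 2 (adjusted p = 0.221) and 0.93 without LC replicate 3 (adjusted p = 0.143). It gave 1.00, 1.02 and 0.97 when IP+LC replicate 1, 2 or 3 was left out (adjusted p = 0.135, 0.144 and 0.137), all from edgeR.

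Pdgfa encodes the ligand chain of alveolar epithelium that binds PDGFRα. It had 52, 192 and 228 UMIs in the LC tumors and 295, 410 and 265 UMIs in the IP+LC tumors. In CPM these were 89.5, 150.4 and 193 against 214, 239 and 192. The groups overlapped, since LC replicate 3 was at the level of IP+LC replicate 3 while LC replicate 1 was far below the rest. The means were 144 ± 52.1 CPM and 215 ± 23.5 CPM (SD, n = 3), a log2 fold change of 0.56 that did not pass the limit (standard error 0.28, 95% interval -0.06 to 1.18, adjusted p = 0.164 from edgeR). It passed without LC replicate 1 (0.34, adjusted p = 0.0799) and without LC replicate 3 (0.81, adjusted p = 0.0852), both from edgeR.

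**Figure D2:**
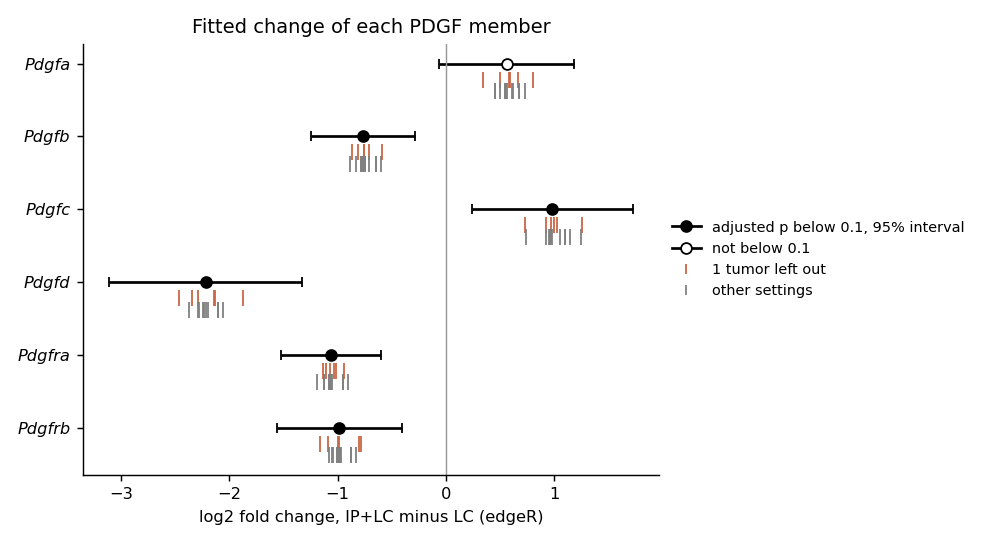
Fitted log2 fold change (horizontal axis, IP+LC minus LC, edgeR) of each PDGF gene with its 95% interval, filled where the adjusted p-value was below 0.1, and below each the values with 1 tumor left out and with other settings. The interval of Pdgfa alone includes 0, and every alternative value of each gene lies on the same side of 0 as the main value.

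Pdgfa, Pdgfb, Pdgfc and Pdgfd summed to 176, 235 and 303 CPM in the LC tumors and to 270.5, 300.01 and 256 CPM in the IP+LC tumors, with overlap. Pdgfra and Pdgfrb summed to 148, 183 and 160.2 CPM in the LC tumors and to 66.0, 83.5 and 90.8 CPM in the IP+LC tumors, without overlap. There were 1.19, 1.29 and 1.89 ligand UMIs for each receptor UMI in the LC tumors and 4.10, 3.59 and 2.82 in the IP+LC tumors, so every IP+LC value lay above every LC value. These sums follow from the values of the members given above and were not tested as a score.

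The make-up of the ligand UMIs also differed. Pdgfa made up 51.0%, 64.0% and 63.9% of them in the LC tumors and 79.1%, 79.8% and 75.1% in the IP+LC tumors. The share of Pdgfb was 31.4%, 22.7% and 24.9% against 12.9%, 12.3% and 14.4%. That of Pdgfd was 8.82%, 10.3% and 8.12% against 0.804%, 1.75% and 2.55%, and for none of these genes did the groups overlap. The share of Pdgfc was 8.82%, 3.0% and 3.08% in the LC tumors and 7.24%, 6.23% and 7.93% in the IP+LC tumors, and here LC replicate 1 was above all IP+LC tumors. These shares rest on 102 ligand UMIs in LC replicate 1 and on 300 to 514 in the other tumors, and a share of UMIs is not corrected for transcript length. There were 1.63, 2.82 and 2.56 Pdgfa UMIs per Pdgfb UMI in the LC tumors and 6.15, 6.51 and 5.20 in the IP+LC tumors. The ratio of Pdgfc to Pdgfd UMIs was 1, 0.290 and 0.379 in the LC tumors and 9, 3.56 and 3.11 in the IP+LC tumors, so Pdgfd UMIs were as many or more in each LC tumor and Pdgfc UMIs were more in each IP+LC tumor.

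**Figure D3:**
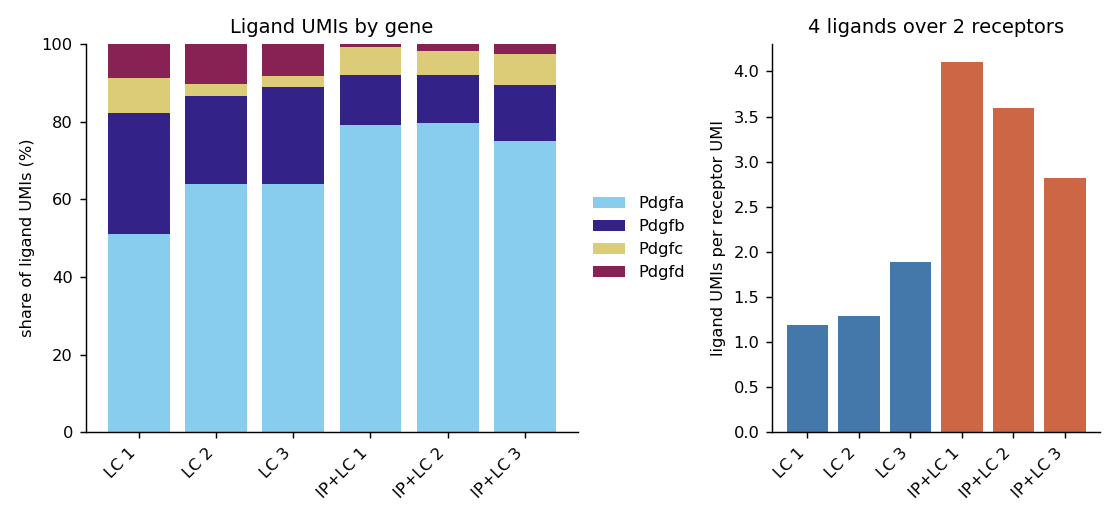
Left, share of the UMIs of the 4 PDGF ligand genes that belonged to each gene (percent, vertical axis) in each tumor. Right, UMIs of the 4 ligand genes per UMI of both receptor genes in each tumor, which was 1.19 to 1.89 in the LC tumors (blue) and 2.82 to 4.10 in the IP+LC tumors (orange).

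Per kilobase of annotated exon sequence, Pdgfa had the highest level of the 6 genes in both groups, with 46.3 ± 16.7 CPM per kb in LC tumors and 69.0 ± 7.53 CPM per kb in IP+LC tumors (SD, n = 3). In the LC group it was followed by Pdgfb (14.7 ± 2.95), Pdgfrb (10.9 ± 2.47), Pdgfra (10.4 ± 1.27), Pdgfd (6.80 ± 1.64) and Pdgfc (2.09 ± 0.859), in CPM per kb. Pdgfrb and Pdgfra did not differ there beyond their spread. In the IP+LC group the order was Pdgfb (8.70 ± 0.293), Pdgfrb (5.49 ± 1.15), Pdgfra (4.99 ± 0.642), Pdgfc (3.84 ± 0.163) and Pdgfd (1.48 ± 0.710), also in CPM per kb, with Pdgfrb and Pdgfra again within their spread. The places of Pdgfc and Pdgfd were thus exchanged between the groups. Because the libraries were read from the 3′ end of transcripts, UMIs need not scale with length, and this order is a description. Without division by length, Pdgfra (104 CPM in LC and 49.97 CPM in IP+LC tumors) was above Pdgfb (61.3 and 36.2 CPM) and Pdgfrb (59.6 and 30.1 CPM) in both groups.

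Genes that process or bind PDGF ligands outside or inside the cell formed a list of 12, of which 10 were tested. In the IP+LC group 2 rose and 1 fell, and the median log2 fold change was 0.07, beside 0.02 for all genes tested. The counts of this and the following lists stand beside the 36.4% of all genes that were called with all tumors, and those with 1 tumor left out beside the 57% without LC replicate 1 and the 19.2% to 26.7% in the other 5 fits. The urokinase gene Plau, whose product frees PDGF-D, rose from 18.1 ± 5.83 to 94.7 ± 17.98 CPM (log2 fold change 2.37, adjusted p = 0.00120 from edgeR). Furin, which encodes a protease for PDGF-A and PDGF-B, rose from 61.7 ± 29.9 to 115 ± 13.7 CPM (adjusted p = 0.0783), and St14, which encodes the protease matriptase, fell from 18.6 ± 3.29 to 9.74 ± 4.22 CPM (adjusted p = 0.0961), both from edgeR and SD with n = 3. The tissue plasminogen activator gene Plat, whose product frees PDGF-C, was at 33.5 ± 7.95 and 25.0 ± 1.58 CPM and did not pass the limit (adjusted p = 0.274 from edgeR). With 1 tumor left out, 1 to 6 genes of the list were called, 6 without LC replicate 1, 2 when either tumor numbered 3 was left out, and 1 in the other fits. Furin passed only in the fits that left out LC replicate 1 or 3, and St14 only in those that left out LC replicate 1 or IP+LC replicate 3.

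Of 26 genes for proteins that bind activated PDGF receptors or carry the signal on, all were tested, 5 rose, 1 fell and 20 did not pass, with a median log2 fold change of 0.23. This is a smaller share than the 36.4% called among all genes, and the difference was not tested. Shc1, Stat3, Src and Grb2 were among those that rose. Shc1, an adaptor protein gene, went from 29.4 ± 4.58 to 61.2 ± 9.20 CPM (log2 fold change 1.06, adjusted p = 0.0104 from edgeR). The adaptor gene Nck1 fell from 98.0 ± 16.7 to 50.6 ± 5.57 CPM (log2 fold change -0.97, adjusted p = 0.0112 from edgeR). Without LC replicate 1, 7 genes of the list were higher and 6 lower, and with any other tumor left out 3 or 4 were higher and 1 lower. Src passed in none of those other fits, and Grb2 only in the fit that left out LC replicate 2.

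Of 18 genes for proteins that end or dampen receptor signaling, 17 were tested, 5 rose and 2 fell (median log2 fold change 0.39). Ptpn1, which encodes a phosphatase of receptor tyrosine kinases, rose from 85.3 ± 8.01 to 167 ± 9.95 CPM (0.97, adjusted p = 0.00687 from edgeR). Socs3, a cytokine-induced inhibitor gene, rose by 1.80 on the log2 scale (adjusted p = 0.0138 from edgeR), and Cbl, Spred1 and Dusp6 rose too. Spry1, a feedback inhibitor gene of growth factor receptors, fell from 45.2 ± 14.4 to 15.5 ± 8.39 CPM (-1.62, adjusted p = 0.0219 from edgeR). Cav1 fell as well (-1.76, adjusted p = 0.00138 from edgeR), and it is at the same time a marker of type 1 alveolar and endothelial cells. Without IP+LC replicate 2 the list had 2 genes higher and 2 lower, and in the other fits with 1 tumor left out 3 to 7 were higher and 1 or 2 lower. Socs3 went to 2.47 without LC replicate 1, and Spry1 lost its call when LC replicate 2 was left out (-1.42, adjusted p = 0.102 from edgeR). Cbl passed in no fit that kept LC replicate 1 and left out another tumor, Spred1 did not pass when IP+LC replicate 2 was left out, and Dusp6 did not when IP+LC replicate 1 or 2 was.

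The immediate early genes that PDGF and serum switch on in cultured fibroblasts moved in both directions. Of 23 listed genes, 21 were tested, 2 rose, 5 fell and 14 did not pass, and the median log2 fold change was 0.003. Fosl1, a subunit gene of the transcription factor AP-1, had 10, 4 and 3 UMIs in the LC tumors and 94, 132 and 49 in the IP+LC tumors (3.34, adjusted p = 0.00395 from edgeR). Myc went from 9.35 ± 1.40 to 50.6 ± 8.81 CPM (2.41, adjusted p = 0.000945 from edgeR). Nr4a1 fell from 86.9 ± 30.2 to 32.3 ± 4.15 CPM (-1.46, adjusted p = 0.00680) and Klf4 from 140.4 ± 89.1 to 49.0 ± 16.3 CPM (-1.55, adjusted p = 0.0492), both from edgeR, and Egr1, Dusp1 and Ccn2 fell too. LC replicate 1 had 22 Klf4 UMIs while LC replicates 2 and 3 had 235 each, so the groups overlapped for this gene. Without LC replicate 1, 6 genes of the list were higher and 6 lower. With another tumor left out 2 were higher, and 1 was lower without IP+LC replicate 1 or 2, 2 without LC replicate 2, 3 without LC replicate 3, and 5, as with all tumors, in the fit that left out IP+LC replicate 3. Fosl1 went to 4.39 without LC replicate 1. Klf4, Ccn2 and Egr1 lost their calls when LC replicate 2 or IP+LC replicate 1 or 2 was left out, Klf4 and Ccn2 also without LC replicate 3, and Dusp1 without IP+LC replicate 1 or 2.

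The PDGF receptors belong to the type III receptor tyrosine kinases, together with the receptors for stem cell factor, CSF-1 and FLT3 ligand. Of 8 genes of this class and its ligands, 6 were tested. Kit fell from 53.0 ± 17.6 to 17.7 ± 8.56 CPM (-1.65, adjusted p = 0.0149 from edgeR), and its ligand gene Kitl fell from 189 ± 58.9 to 88.1 ± 9.97 CPM (-1.11, adjusted p = 0.0134 from edgeR). The ligand gene Csf1 rose from 68.2 ± 52.9 to 287 ± 33.9 CPM (2.14, adjusted p = 0.00934 from edgeR, and 2.93 without LC replicate 1), while its receptor gene Csf1r did not pass the limit (0.59, adjusted p = 0.274 from edgeR) except when LC replicate 1 was left out (1.20, adjusted p = 5.24e-05 from edgeR). Without that tumor 2 genes of the list were higher and 3 lower, and with any other tumor left out 1 was higher and 2 were lower, as with all tumors. The receptor-like gene Pdgfrl had 3, 10 and 11 UMIs in the LC tumors and 5, 7 and 6 UMIs in the IP+LC tumors, too few for the test.

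**Figure D4:**
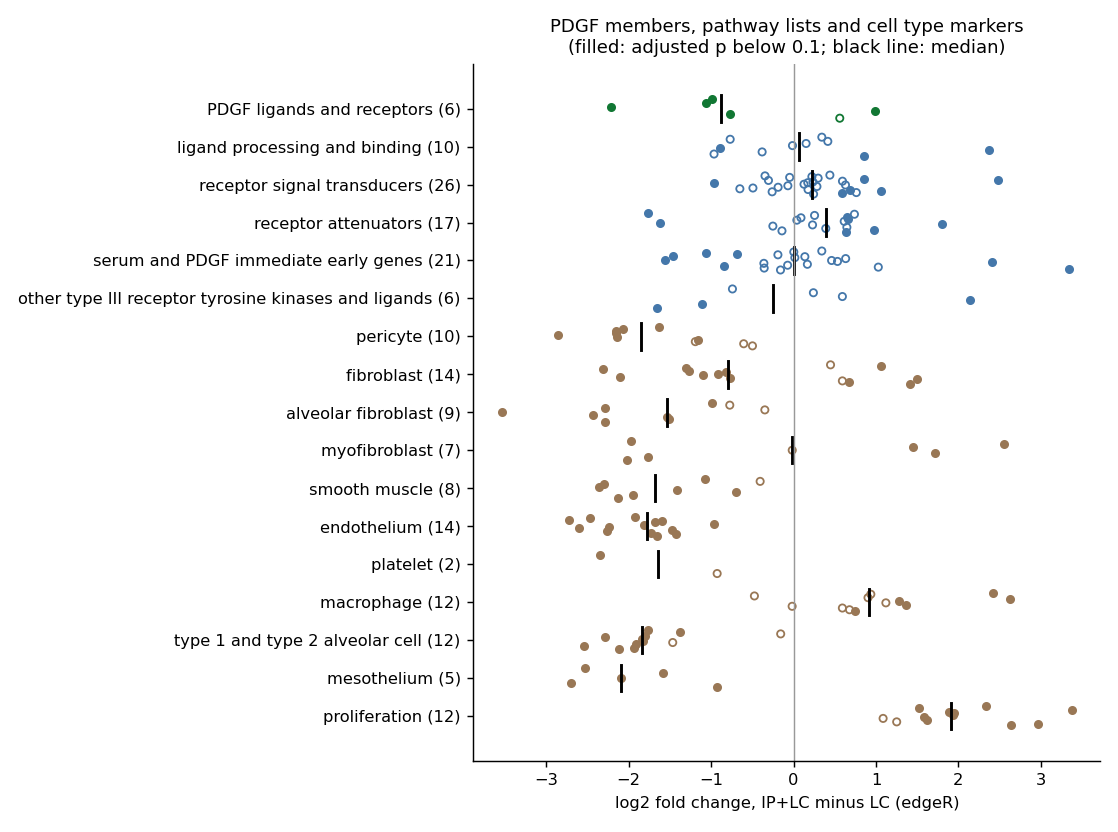
Log2 fold change (horizontal axis, IP+LC minus LC, edgeR) of each tested gene of the PDGF family (green), of the pathway lists (blue) and of the cell type marker lists (brown), with the number of tested genes in parentheses. Filled points had an adjusted p-value below 0.1 and black lines are medians, which were -1.85 for pericyte, -1.54 for alveolar fibroblast and -1.77 for endothelial markers and 1.91 for proliferation markers.

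Pericyte, smooth muscle and alveolar fibroblast markers, all of cell types known to carry a PDGF receptor, were mostly lower in the IP+LC group, whereas general fibroblast and myofibroblast markers moved in both directions. Of 12 pericyte markers 10 were tested, 0 rose and 7 fell, with a median log2 fold change of -1.85. Their summed level was 451 to 674 CPM in the LC tumors and 148 to 198 CPM in the IP+LC tumors. The most abundant of them were Postn, also a product of activated fibroblasts (-1.64, adjusted p = 0.00154), and Gucy1a1 (-2.15, adjusted p = 0.00225), both from edgeR. Cspg4, a classical pericyte antigen gene (-0.60, adjusted p = 0.298), and Rgs5 (-0.50, adjusted p = 0.429), both also from edgeR, did not pass the limit at 5 to 19 UMIs in each tumor. Of 9 smooth muscle markers 8 were tested, and 7 of these fell (median -1.68, 401 to 645 CPM against 172 to 226 CPM), with the cytoskeletal genes Des (-1.41, adjusted p = 0.00411) and Cnn1 (-1.95, adjusted p = 0.00295 from edgeR) at the highest level. Of 12 alveolar fibroblast markers 9 were tested and 7 fell (median -1.54), from 3253 to 5455 CPM in sum in the LC tumors to 898 to 1274 CPM in the IP+LC tumors. The most abundant were Inmt (-3.54, adjusted p = 0.000821) and Ces1d (-2.43, adjusted p = 0.00120), both from edgeR. Tcf21, a transcription factor gene of lung fibroblasts that carry PDGFRα, fell from 90.1 ± 20.3 to 18.9 ± 6.88 CPM (-2.28, adjusted p = 0.00162 from edgeR).

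General fibroblast markers did not move in 1 direction while both receptor mRNAs fell. Of 14 such markers 4 rose and 8 fell (median -0.79), and their summed level was 2374 to 2666 CPM in the LC tumors and 2611 to 2656 CPM in the IP+LC tumors. The matrix genes Col1a1 (141 ± 51.0 to 381 ± 53.5 CPM, adjusted p = 0.00844 from edgeR), Col1a2, Col5a1 and Fn1 rose, whereas Dcn (762 ± 253 to 177 ± 24.4 CPM, adjusted p = 0.00165 from edgeR) and Pi16, a marker of adventitial fibroblasts, were among those that fell. Of 10 myofibroblast markers 7 were tested, 3 rose and 3 fell. Acta2, the smooth muscle actin gene, fell (-2.03, adjusted p = 0.00137 from edgeR), and Grem1 (2.56, adjusted p = 0.00146), Tnc (1.71, adjusted p = 0.0162) and Spp1 (1.45, adjusted p = 0.0860), a gene also made by macrophages, rose, all from edgeR. The most abundant fibroblast marker, Col3a1, did not pass (0.59, adjusted p = 0.106 from edgeR), but it did without LC replicate 1 (0.86, adjusted p = 0.000213 from edgeR). Without LC replicate 1, 6 fibroblast markers were higher and 8 lower, and with another tumor left out 2 to 4 were higher and 4 to 7 lower, fewest without IP+LC replicate 2. Col1a2 lost its call when LC replicate 3 or IP+LC replicate 2 was left out, and Fn1 when LC replicate 2 or IP+LC replicate 2 or 3 was. Spp1 went to 2.58 without LC replicate 1 and did not pass with any other tumor left out, which left 2 myofibroblast markers higher. The summed myofibroblast markers overlapped between the groups (898 to 2099 CPM against 2081 to 2437 CPM) through LC replicate 1 alone, as the other LC tumors had 1174 and 898 CPM. On average, Spp1 had the largest part of this sum, with 756 ± 714 CPM in LC and 2053 ± 176 CPM in IP+LC tumors (SD, n = 3). Of the other called markers, Acta2 fell from 465 to 115 CPM, Tagln from 85.7 to 25.1 and Aspn from 41.9 to 10.6. Tnc rose from 7.11 to 22.9 CPM and Grem1 from 4.18 to 23.8 CPM, so the sum does not stand for the whole list. Plat, Csf1r, Pdgfrl, Cspg4, Rgs5, Tcf21, Col1a1, Tnc, Grem1, Tagln, Aspn and the genes listed without values were chosen for naming after their values were seen.

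The markers of endothelial cells, platelets and alveolar cells, named above as sources of ligands, also differed between the groups. Mesothelial, macrophage and proliferation markers are given after them, without a link to a ligand. All 14 endothelial markers fell (median -1.77, 2733 to 4376 CPM in sum in the LC tumors and 832 to 1042 CPM in the IP+LC tumors), beside the fitted change of -0.77 of Pdgfb. Calcrl (-2.46, adjusted p = 0.00304) and Ramp2 (-2.73, adjusted p = 0.000993), both from edgeR, were the most abundant. Of 8 platelet markers with counts, 2 were tested, the chemokine genes Pf4 (-0.93, adjusted p = 0.139) and Ppbp (-2.35, adjusted p = 0.0101), both from edgeR, and the sum went from 139 to 227 CPM in the LC tumors to 54.9 to 92.8 CPM in the IP+LC tumors. The highest LC sum was that of LC replicate 1 and came mainly from Pf4, with 114 UMIs there against 11 of Ppbp. Ppbp fell in the fit over all tumors, and both genes fell when LC replicate 3 was left out, while Pf4 was at -0.26 without LC replicate 1. Of 12 type 1 and type 2 alveolar cell markers 10 fell and 0 rose (38042 to 48031 CPM in sum against 6977 to 12331 CPM), beside the Pdgfa values above. The surfactant genes Sftpc (-2.11, adjusted p = 0.00258) and Sftpa1 (-2.54, adjusted p = 0.00137), both from edgeR, were the most abundant of them. Mesothelial markers fell in 5 of 5 tested genes, with 293 to 487 CPM in sum against 107 to 167 CPM, led in level by Krt19 (-1.59, adjusted p = 0.00336) and Msln (-0.92, adjusted p = 0.0343), both from edgeR. Of 12 macrophage markers 5 rose and 0 fell, and their summed levels overlapped (1600 to 4959 CPM against 3393 to 4274 CPM). The overlap came from LC replicate 1, without which the LC tumors were at 1600 and 1892 CPM and 10 markers rose, while 2 rose with any other tumor left out. Apoe did not pass the limit (-0.47, adjusted p = 0.376) and C1qa, a complement gene, rose (1.36, adjusted p = 0.0896), both from edgeR. Without LC replicate 1 Apoe turned direction (0.13, adjusted p = 0.488 from edgeR) and C1qa went to 2.40, whereas C1qa did not pass with any other tumor left out. Of 12 proliferation markers 10 rose and 0 fell, from 177 to 878 CPM in the LC tumors to 1446 to 1687 CPM in the IP+LC tumors. Top2a rose (2.96, adjusted p = 0.00160), and Cdk1 did not pass the limit (1.25, adjusted p = 0.221), both from edgeR. Without LC replicate 1 Top2a went to 3.61, Cdk1 passed (2.93, adjusted p = 9.50e-08 from edgeR) and all 12 proliferation markers rose, while 5 rose with any other tumor left out. Mesothelial markers fell in 3 genes without LC replicate 2 or IP+LC replicate 2, and in 4 or 5 in the other fits. Msln lost its call when LC replicate 2 or IP+LC replicate 2 or 3 was left out. Without LC replicate 1, 12 alveolar cell, 8 pericyte, 8 alveolar fibroblast and 7 smooth muscle markers fell. With another tumor left out, 9 or 10 alveolar cell, 6 to 8 pericyte, 6 to 8 alveolar fibroblast and 5 or 6 smooth muscle markers fell. No marker in the tables was at 0 UMIs in all libraries, and the part of these cell types in the changes of the PDGF genes was not tested.

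Across the 6 tumors, the genes whose log2(CPM + 4) followed each member most closely were described by Pearson's r, without a test, since many genes differ between the groups and 6 points from 2 groups give high values readily. For Pdgfra these were Slc39a4, Cmklr1 and Cebpa (r = 0.997, 0.995 and 0.995), and 12.8% of the 4844 genes with at least 20 UMIs in every library reached an r of 0.9. For Pdgfrb they were Rab3d, Apmap and Gimap4 (r = 0.990, 0.984 and 0.982, with 4.17% of genes at 0.9 or above). Pdgfb was followed by Mtcl1, Ccdc82 and Mdp1 (r = 0.999, 0.997 and 0.989, 6.90% of genes) and Pdgfd by Tmod3, Decr1 and Smpdl3a (r = 0.999, 0.998 and 0.996, 11.1% of genes). For Pdgfc they were Uba2, Vars and Ugdh (r = 0.995, 0.995 and 0.994, 10.8% of genes) and for Pdgfa they included Ppp2r5c and Fam129a (r = 0.990 and 0.988, 3.39% of genes). None of the genes named here for their pattern is in the pathway or marker lists.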

How the data were processed

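Tumor RNA (180 ng per library) was sequenced from 3 LC and 3 IP+LC tumor samples. The authors made bulk libraries with an oligo-dT primer that carries a sample barcode and a UMI of 10 nt, so that reads come from transcript 3′ ends. According to the paper's methods and the labels, UMI-tools 1.1.1 extracted and counted the UMIs (method unique), Trim Galore 0.6.7 trimmed, HISAT2 2.2.1 aligned to GRCm38 and featureCounts 2.0.1 assigned reads to genes. The annotation release and strand setting are not given in the sources used here. The deposited values are UMI counts per gene, not normalized, in 1 table per tumor. All 31130 identifiers were found in GENCODE M21.

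Here, edgeR 4.0.16 (R 4.3.3) was used with filterByExpr (minimum count 10, minimum total 15), TMM factors (0.905 to 1.07) and the quasi-likelihood test, without a block. The paper states a limit of 0.1 for adjusted p but no test, and the submitters' notes list DESeq2. CPM are after TMM scaling. The labels number 3 tumor samples per group and do not state that each came from a separate mouse, so p-values measure the spread between these samples. Alternatives were other scalings and filters, DESeq2 1.42.0, limma 3.58.1, a replicate block, thinning to 592733 UMIs (seed 1) and leaving out each tumor. The procedure was also run on simulated counts, and the outcome of that run is not reported here. Exon matches of at least 81 nt and 95% identity were searched against transcripts of other genes.

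The members and lists were chosen with earlier results of these data known. Genes were named by rule: all members, of each pathway list the 2 largest called increases and the 2 largest called decreases (10 or more UMIs in every tumor of the group with more), the 2 most abundant markers of each list, and the 3 genes of most similar pattern. Exceptions are named in the text. Some genes that the rule selects are not reported here. Promoter windows were used for 4 of the 6 members, the 250 bases before the RefSeq start. Intervals of single CPM values cover counting error only, and those of fold changes rest on the spread between tumors. Leaving out each tumor for the list counts was added after seeing the data.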

Additional observations from a re-analysis of the deposited data

How the results depend on the processing

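Every member kept its direction in each alternative in which it was tested (16 settings for Pdgfd, 17 for Pdgfc and 18 for each of the other members). Pdgfa passed the limit with library size only (log2 fold change 0.73), with limma voom and sample quality weights (0.46) and without a filter on low counts (0.68). Pdgfb did not pass without a filter (-0.65). The filter of 0.5 CPM in 1 library removed no gene with a UMI and gave the same values. Pdgfc did not pass with DESeq2 (0.95), with counts thinned to the smallest library (0.74) or with the replicate block (0.97, adjusted p = 0.104 from edgeR). The number of called members was 3 with at least 10 UMIs in every library and 3 after thinning, in which Pdgfd could not be tested. With 1 tumor left out, it was 2 to 6, and the log2 fold changes ran from 0.34 to 0.81 for Pdgfa, -0.87 to -0.59 for Pdgfb, 0.73 to 1.26 for Pdgfc, -2.47 to -1.87 for Pdgfd, -1.14 to -0.94 for Pdgfra and -1.17 to -0.78 for Pdgfrb. The cause of these changes was not tested.

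Over all genes, 4088 were called, 6233 with limma voom and sample quality weights, 2413 after thinning and 2265 to 6691 with 1 tumor left out. With library size only, 58.3% of the called genes were higher in the IP+LC group instead of 46.1%, and the fitted log2 fold changes of all genes shifted by 0.16. The replicate numbers do not pair the samples: deviations from the group means of samples with the same number had r of 0.03, -0.12 and 0.11, and LC replicate 1 correlated best with IP+LC replicate 2 (0.13). With the number as a replicate block, 3410 genes and 4 members were called. Depth limits Pdgfc and Pdgfd most, at 9 to 32 and 3 to 31 UMIs per tumor. With 3 tumors per group, an exact permutation test of a single value cannot go below p = 0.1.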
